A study of Homo sapiens with 6 samples.

Results

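The genes described here are 7 members of the ADAM family of metalloproteases, ADAM8, ADAM9, ADAM10, ADAM12, ADAM15, ADAM17 and ADAM19, among the 57150 genes of an RNA-seq table of K562 cells. They were taken by gene symbol, with ADAM15 chosen because its level was higher in the KD-labelled column and the others as family members to set beside it. All 7 had a row, and 5 of them passed the expression filter, a mean FPKM of 1 or more over the 2 columns, where FPKM is the number of fragments scaled to transcript length in kilobases and to sequencing depth. ADAM8, with 2 counts in each column, and ADAM19, with 0 counts in the KD-labelled column and 1 count in the CTRL-labelled column, did not pass and are given no fold. A limit of 3 counts corresponds to 0.219 CPM (counts scaled to depth) in the KD-labelled column and to 0.257 CPM in the CTRL-labelled column.

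K562 is a human erythroleukemia cell line. Pools of these cells were transfected with control siRNAs (3 pools, CTRL) or with siRNAs that target aCP1 and aCP2 together (3 pools, the aCP1/2 combined knockdown, KD), and RNA was taken at 72 h. The aCP proteins are RNA-binding proteins with affinity for C-rich sequence, encoded by PCBP1 and PCBP2. The deposited table gives a single FPKM and a single estimated count per gene and group, so the spread between pools could not be computed, and no test was run.

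Several facts about the 2 columns limit what their labels can be taken to mean. PCBP1 was at 184.1 FPKM in the KD-labelled column and 187.8 in the CTRL-labelled column, and PCBP2 had 530.8 and 342.4, so that the mRNAs of both targets were not lower together in the KD-labelled column. The study also checked the depletion by separate assays of mRNA and protein, which were not analysed here. The columns are therefore named by their labels throughout. The estimated counts summed to 13699340 and 11680567. Each sum is below the number of mapped read pairs that the study gives for any single library, so the sums are not the sequencing depth. The reason for this gap was not tested, and the count shares and counting intervals below rest on the deposited counts. Of 12 genes for which erythroid cells are known, 9 stayed under an FPKM of 1 in each column and 7 were at 0 in both, among them GATA1 and KLF1, while TFRC, the transferrin receptor, had 133.7 and 65.7. The 12 values summed to 138.1 in the KD-labelled column and 72.1 in the CTRL-labelled column, nearly all of it TFRC. Of 8 epithelial genes, 4 exceeded an FPKM of 5 in each column, and the list sums were 4370 and 3190, nearly all of it KRT7, KRT8 and KRT18, while KRT19 and ESRP1 were at 0 in both columns. The part of these differences in the values below was not tested.

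ADAM proteins are anchored in the membrane by a single span. Outside the cell they carry a prodomain that is removed during maturation, a zinc-dependent protease domain and a disintegrin domain that can bind integrins, and inside the cell a short tail that binds signalling and trafficking proteins. Their best known activity is shedding, the release of the outer part of growth factors, cytokines, adhesion proteins and receptors such as Notch. ADAM10 and ADAM17 are the main sheddases of most cells. ADAM15 is known for its disintegrin domain, for adhesion, and for a cytoplasmic tail whose exons are alternatively spliced.

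The members differ in the sequence before their splice acceptors, and C-rich tracts there were the sequence feature the study examined, so the stretches that follow are shown for that difference. Each line gives the last 30 nt of the intron before an exon, read 5′ to 3′ from GRCh37 with the canonical GENCODE transcript, in lower case with every C in capitals. The lines for ADAM15 are tail exons that some annotated transcripts skip. Those for the other genes are the exons whose C content lies nearest to the median of the gene.
ADAM15 exon 19, chr1:155033209-155033238, plus strand: CtCtCCCttCttgCCtttCCtCatgCatag
ADAM15 exon 20, chr1:155033861-155033890, plus strand: tgtgCCtatCtgCCCCtCCtgCCCtCtCag
ADAM10 exon 4, chr15:58971482-58971511, minus strand: ttgtCaagaatttgttgCtttCattaatag
ADAM17 exon 5, chr2:9668084-9668113, minus strand: CatCtCagtCgtatatattttCtgttttag
ADAM12 exon 10, chr10:127787070-127787099, minus strand: ttaaagaaagtCCtCtCttttatttCCtag

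The ADAM15 stretches hold 12 and 14 C, against 3 in ADAM10, 5 in ADAM17 and 6 in ADAM12. Over all 22 acceptors of ADAM15, C made up 39.1% ± 10.4 (SD over acceptors) and U in the RNA 28.8%, and 15 of the 22 had more C than U. The mean C content was 16.7% ± 7.6 over the 18 acceptors of ADAM17, 15.2% ± 8.0 over the 21 of ADAM9 and 14.4% ± 8.7 over the 15 of ADAM10. These genes thus carry mostly U-rich tracts, and at 1 acceptor of ADAM10 and none of ADAM9 and ADAM17 did C outnumber U. ADAM12 lay between them, at 23.2% ± 10.5 over 22 acceptors. The median of the gene means was 24.3% over the 10826 expressed genes with an acceptor, and 82.2% of these genes had a lower mean than ADAM15. Of the 2 members that were nearly undetected, ADAM8 had 42.6% C and more C than U at 20 of its 22 acceptors, while ADAM19 had 30.9% C against 38.0% U and more C than U at 6 of 22. The annotation holds 13 exons of ADAM15 that another coding transcript skips, 16 of ADAM10, 6 of ADAM9, 4 of ADAM8, 1 of ADAM17 and 0 of ADAM12 and ADAM19. An exon was counted if it lay inside any intron of another coding transcript, so a transcript that lacks a run of exons adds each of them. In the canonical transcript of ADAM10, every exon from 2 to 15 was counted, so its number is not one of exons skipped singly. The table gives whole genes, so the inclusion of these exons was not analysed here.

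**Figure D1:**
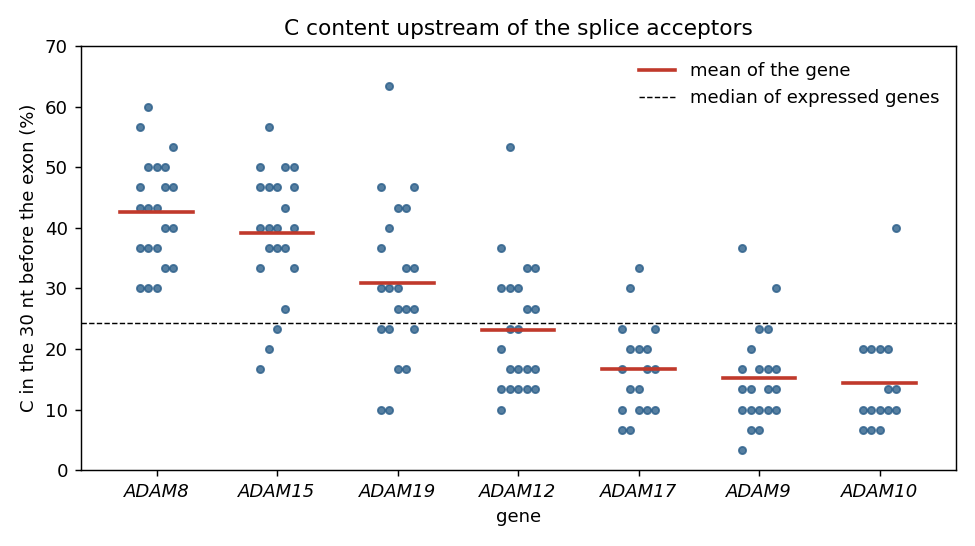
Share of C (%) in the 30 nt before each exon of the canonical transcript of the 7 ADAM genes, with a point for each acceptor, a red bar at the mean of the gene and a dashed line at the median of the means of expressed genes (24.3%). The points of ADAM15 and ADAM8 lie mostly above the dashed line and those of ADAM9, ADAM10 and ADAM17 mostly below it.

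ADAM15 was the only one of the 5 expressed members that was higher in the KD-labelled column, and ADAM9 had the lowest ratio of the others. The log2 ratio used divides FPKM + 1 in the KD-labelled column by FPKM + 1 in the CTRL-labelled column, and the added 1 makes differences of weakly expressed genes look smaller. A log2 ratio of 1 or more was reached by 1 of the 5 members, ADAM15, against 8.51% of the 13741 genes that passed the filter. A log2 ratio of -1 or less was reached by 1 member, ADAM9, against 3.27% of these genes. As ADAM15 was picked on this contrast, its values are a description. In bulk RNA, fewer cells with a transcript and less of it per cell cannot be told apart.

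ADAM15 (ENSG00000143537) stood at 90.3 FPKM in the KD-labelled column and 16.1 in the CTRL-labelled column, from 2100 and 391 counts. The FPKM was 5.62-fold higher in the KD-labelled column, and the log2 ratio was 2.42. As a share of each column's total, the counts gave a log2 ratio of 2.195, with a 95% interval of 2.04 to 2.35. This interval, like the others given here, is an exact binomial interval and covers counting error only. Of the 13741 genes, 74 (0.539%), ADAM15 included, had a log2 ratio as high. ADAM15 stood at position 1483 of all genes by FPKM in the KD-labelled column and at position 5390 in the CTRL-labelled column. The gene lies on chromosome 1 of GRCh37 from 155023042 to 155035251 on the plus strand. The locus given in the table, from 155006300 to 155035252 in hg19, also takes in DCST1. The gene overlaps DCST1 by 365 nt on the same strand, and DCST1 had 0 and 1 counts.

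ADAM9 (ENSG00000168615), a widely expressed sheddase, showed the opposite difference. It reached an FPKM of 13.5 in the KD-labelled column and 36.5 in the CTRL-labelled column, from 615 and 1612 counts. The FPKM was 2.69-fold higher in the CTRL-labelled column, with a log2 ratio of -1.37, and 178 of the 13741 genes were as low. The ratio of count shares was -1.62 (95% interval -1.76 to -1.49). ADAM9 shares 71 nt with TM2D2 on the other strand, which had 321 and 393 counts.

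The main sheddases ADAM10 and ADAM17 had smaller differences in the same direction as ADAM9. ADAM10, which cuts Notch receptors and the amyloid precursor protein, had an FPKM of 8.57 and 14.6 from 497 and 858 counts, a log2 ratio of -0.70. Its ratio of count shares was -1.02 (95% interval -1.18 to -0.86), past -1, while the median of all genes on this scale was -0.21, and relative to that median ADAM10 was at -0.81. On that scale 1 member, ADAM15, was at 1 or more, against 6.83% of genes, and 2 members, ADAM9 and ADAM10, were at -1 or less, against 9.7% of genes. ADAM17, which releases TNF and ligands of the EGF receptor, had an FPKM of 3.38 and 4.69, a log2 ratio of -0.38. Its estimated counts of 176.3 and 246.9 were the only ones among the members that were not whole within 0.01. ADAM17 overlaps IAH1 on the other strand by 8058 nt, and IAH1 had 817.7 and 810.1 counts. No source used here says that strand was used in counting, so reads from the overlap of such pairs could not be told apart.

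ADAM12, a protease of muscle and mesenchymal cells, had the smallest difference of the expressed members. It reached an FPKM of 2.80 in the KD-labelled column and 3.55 in the CTRL-labelled column, from 272 and 327 counts, a log2 ratio of -0.26. The ratio of count shares was -0.50 (95% interval -0.73 to -0.26). The 4 members other than ADAM15 thus had log2 ratios from -1.37 to -0.26 with a median of -0.54, and all 4 were below 0, as were 48.9% of all genes tested.

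**Figure D2:**
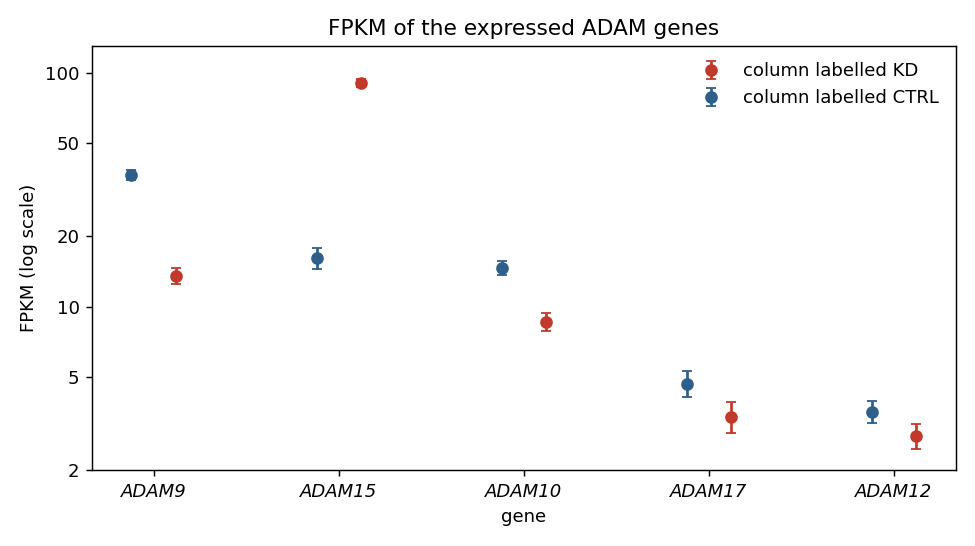
FPKM (log scale) of the 5 expressed ADAM genes in the KD-labelled column (red) and the CTRL-labelled column (blue), with 95% counting intervals. ADAM15 has 90.3 in the KD-labelled column and 16.1 in the CTRL-labelled column, and the other 4 genes are lower in the KD-labelled column.

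The order of the members by FPKM was not the same in the 2 columns. In the CTRL-labelled column, ADAM9 led with 36.5 (95% Poisson interval 34.7 to 38.3). ADAM15 came second with 16.1 (14.5 to 17.7), followed by ADAM10 with 14.6 (13.6 to 15.6), and these neighbours did not differ beyond their counting intervals. Next were ADAM17 with 4.69 (4.12 to 5.31) and ADAM12 with 3.55 (3.18 to 3.96). In the KD-labelled column, ADAM15 led with 90.3 (86.5 to 94.3), ahead of ADAM9 with 13.5 (12.5 to 14.6) and ADAM10 with 8.57 (7.84 to 9.36). The intervals of ADAM17, with 3.38 (2.89 to 3.91), and ADAM12, with 2.80 (2.48 to 3.15), overlapped there.

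The make-up of the family followed this order. ADAM15 made up 76.1% of the summed FPKM of the 7 genes in the KD-labelled column and 21.3% in the CTRL-labelled column. The share of ADAM9 was 11.4% and 48.3%, and that of ADAM10 was 7.23% and 19.4%. Without ADAM15, the summed FPKM was 28.3 in the KD-labelled column and 59.4 in the CTRL-labelled column, which is 2.10-fold higher in the CTRL-labelled column. With ADAM15 the sums were 118.7 and 75.4.

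Ratios between 2 genes of the same column do not depend on a single scale factor for each column. They still hold the trend with GC content that is described below. The FPKM of ADAM15 was 6.67 times that of ADAM9 in the KD-labelled column and 0.441 times in the CTRL-labelled column, a change of 15.1-fold. From counts, the ratios were 3.41 and 0.243, a change of 14.1-fold. The ratio of ADAM15 to ADAM10 changed 9.57-fold by FPKM, that to ADAM17 7.80-fold and that to ADAM12 7.13-fold. These ratios show unequal change and do not say which of the 2 genes differed.

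**Figure D3:**
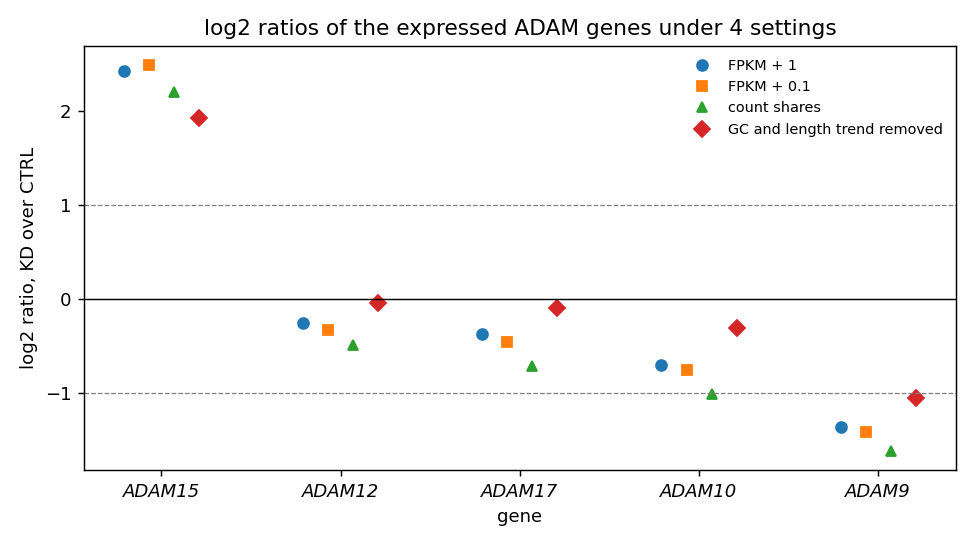
log2 ratio (KD-labelled over CTRL-labelled column) for the 5 expressed ADAM genes, from FPKM + 1, FPKM + 0.1, count shares and FPKM + 1 after removal of the GC and length trend (dashed lines at 1 and -1). ADAM15 stays between 1.92 and 2.48, ADAM9 between -1.62 and -1.05, and the other 3 genes lie below 0 under each setting.

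The log2 ratios of the table moved with the base composition of the transcripts, and the members lie at both ends of that range. Across 13298 genes the Spearman rho of the log2 ratio with the GC content of the canonical transcript was 0.459, which is a description across genes that share the same 2 columns. The GC content was 62.5% for ADAM15, 47.0% for ADAM12, 42.1% for ADAM17, 38.7% for ADAM9 and 37.5% for ADAM10, which is nearly the order of their log2 ratios. The genes were put into 4 groups of equal size by GC content. In the group with the highest GC content, which holds ADAM15, the median log2 ratio was 0.48 and 21% of the genes reached 1. Of the 3325 genes in it, 38 were as high as ADAM15, itself included. In the group with the lowest GC content, which holds ADAM9 and ADAM10, the median was -0.24, and 45 of 3325 genes were as low as ADAM9.

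After removal of the trend with GC content and length, ADAM15 had a log2 ratio of 1.92 and ADAM9 of -1.05. ADAM10 was then at -0.31, ADAM17 at -0.10 and ADAM12 at -0.04, each nearer to 0 than before the removal. On this scale 5.66% of the genes, ADAM15 among them, were at 1 or more and 2.99%, ADAM9 among them, at -1 or less.

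**Figure D4:**
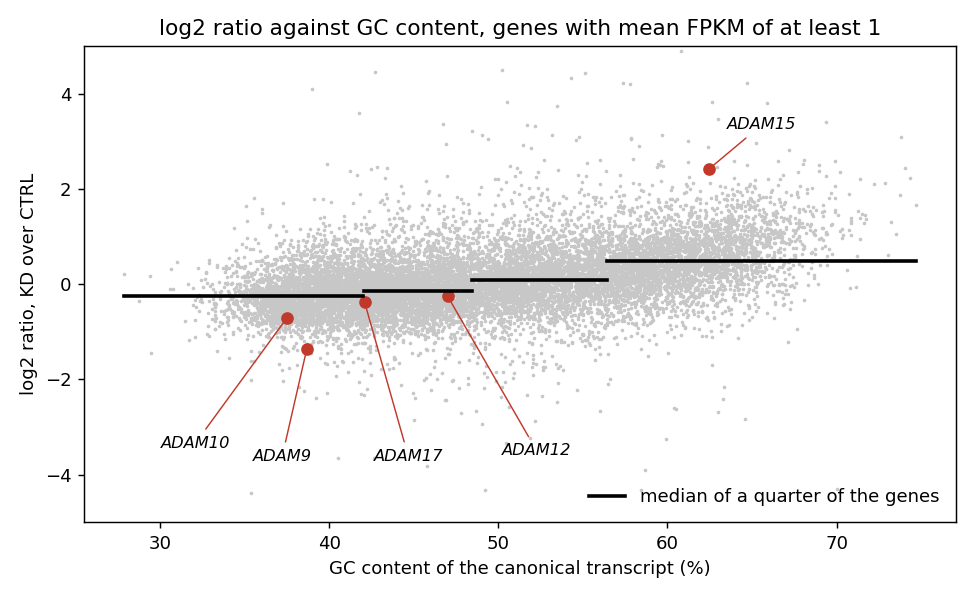
log2 ratio (KD-labelled over CTRL-labelled column) against the GC content (%) of the canonical transcript, with the genes that passed the filter in grey, the 5 expressed ADAM genes in red and black bars at the medians of 4 groups of equal size by GC content (6 genes lie outside the plotted range). ADAM15, at 62.5% GC, lies above most genes of its group, and ADAM9, at 38.7%, lies below most genes of its group.

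The genes whose pair of values was most like that of ADAM15 were sought among 11106 protein-coding genes, by the distance of log2(FPKM + 1) over the 2 columns. The nearest 5 were PNPLA6, C19orf70, EMC6, CHCHD5 and ABCA2, at distances of 0.24 to 0.395. PNPLA6, a phospholipase of the endoplasmic reticulum, had an FPKM of 77.9 and 17.5. EMC6, a subunit of the membrane insertase of that organelle, had 102.7 and 20.2. From count shares the 5 genes were less alike, with ADAM15 at 2.195. C19orf70 was at 2.38, EMC6 at 2.12, CHCHD5 at 1.56, PNPLA6 at 1.30 and ABCA2 at 1.06. The GC content of the 5 genes was 57.2% to 64.2%, near that of ADAM15. A likeness over 2 values is a weak measure and carries no statement on shared control.

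The genes around ADAM15 were compared with it as far as 100 kb to each side. Of 22 other rows of the table in this window, 13 passed the filter, and their median log2 ratio was 0.32. Of these, 11 had a log2 ratio above 0, against 51.1% of all genes tested, and after removal of the trend 7 of the 12 with a value did, against 55.6%. A ratio of 1 was reached by 1 of the 13, against 8.51% of all genes, which was DPM3, a subunit of the dolichol-phosphate mannose synthase. DPM3 lies 77.1 kb beyond ADAM15, on chromosome 1 from 155112367 to 155113071, and was at 130.6 FPKM in the KD-labelled column and 16.8 in the CTRL-labelled column, from 366 and 47 counts. Its log2 ratio was 2.89, and 2.30 with the trend removed. SLC50A1, a sugar transporter, lies between them and was at 0.997. RP11-540D14.6, in the same locus of the table as SLC50A1, was at 0.43. The ephrin genes next to ADAM15 had smaller values, with 0.18 for EFNA4, 0.45 for EFNA3 and 0.62 for EFNA1. On the other side of ADAM15, ZBTB7B was at 0.58, CKS1B at 0.32, SHC1 at 0.29, PYGO2 at 0.21, PBXIP1 at 0.12 and FLAD1 at -0.13. RP11-307C12.11, an RNA antisense to DCST1, lies within the same locus of the table. It runs from 155017667 to 155018594, before the start of ADAM15, and does not overlap that gene. This RNA had 106 and 109 counts, a log2 ratio of -0.05.

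The other genes of the family were expressed weakly or not at all. Of 5 further ADAM genes with a catalytic site and 8 without one, none passed the filter, and 7 of the 13 were at 0 in both columns. The highest of them was ADAM22, a neuronal ligand receptor without protease activity, with an FPKM of 0.361 and 0.810 from 41 and 75 counts. ADAM11 had 0.054 and 0.431 from 3 and 23 counts. ADAM33 had 0.244 and 0.146, from 10 and 4 counts. ADAM32 had 0.216 and 0.278 from 8 and 15 counts. ADAM21 was at 0 in the KD-labelled column and had 5 counts in the CTRL-labelled column.

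Secreted and matrix-degrading relatives were compared next, for which the median over all genes was 0.01. Of 19 ADAMTS genes, 6 passed the expression filter. None of them was at 1 or more or at -1 or less from FPKM, against 8.51% and 3.27% of all genes. Their median was 0.58, or 0.34 after removal of the trend. ADAMTS5 was at 1.15 after that removal and ADAMTS8 at 1.17 from count shares. On these scales 5.66% and 6.83% of all genes were at 1 or more. ADAMTS10 had an FPKM of 6.37 and 4.203, and ADAMTS5, an aggrecan-cutting protease, had 4.42 and 2.09. Of 22 matrix metalloproteinases, 4 passed, with a median of 0.97. MMP17 reached 1.03 with 11.4 and 5.08, and MMP28 reached 1.13 with 12.7 and 5.25, so that 2 of the 4 were at 1 or more, against 8.51% of all genes. After removal of the trend, the median of the 3 genes with a value was 0.12 and none of them reached 1. With no filter, over the genes of the list above 0 in either column, the median was -0.044. That is the value of MMP13, which had 0 and 1 counts.

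All 5 metalloprotease inhibitors were expressed, and 4 of them were lower in the KD-labelled column, against 48.9% of all genes tested. TIMP1, the most abundant, was the exception, with an FPKM of 635.1 and 428.3, a log2 ratio of 0.57. TIMP2 had 52.4 and 122.2 from 2123 and 4894 counts, a log2 ratio of -1.21, and was the 1 gene of the list past -1, against 3.27% of all genes. TIMP3, which inhibits ADAM17 among other proteases, had 18.6 and 28.3, a log2 ratio of -0.58. TIMP4 was at -0.60 and RECK, a membrane-anchored inhibitor, at -0.47. From count shares TIMP4 was at -1.03, where the median of all genes was -0.21 and 9.7% of genes were at -1 or less. The median of the list was -0.58, and -0.45 with the trend removed.

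Of the genes that mature and carry ADAM proteins, 11 of 13 passed and their median log2 ratio was 0.0005. This median depended on the scale, with -0.30 from count shares, -0.47 after removal of the trend and 0.25 over the genes with an FPKM over 5 in either column. The median of all genes was -0.21 from count shares and 0.06 after removal of the trend. FURIN, which removes the prodomain, had an FPKM of 26.4 and 29.97, and PCSK6, a related convertase, had 43.7 and 27.0, a log2 ratio of 0.67. TSPAN15, a tetraspanin that escorts ADAM10 to the surface, was the 1 gene past -1, against 3.27% of all genes. It had 4.03 and 10.1 from 77 and 184 counts, a log2 ratio of -1.14. None reached 1, against 8.51% of all genes. The other tetraspanins of this group, which also escort ADAM10, differed among themselves, with TSPAN5 at -0.87 (-2.197 from count shares), TSPAN33 at -0.20, TSPAN10 at 0.0005, TSPAN14 at 0.21 and TSPAN17 at 0.53.

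Among 31 membrane proteins that ADAM proteases are known to cut, 20 passed, with a median log2 ratio of -0.02. Of these, 9 were above 0 and 11 below, against 51.1% and 48.9% of all genes. The 1 gene past -1, against 3.27% of all genes, was MICB, a ligand of an activating receptor of natural killer cells. It had 20.2 FPKM in the KD-labelled column and 57.2 in the CTRL-labelled column, from 571 and 1600 counts, a log2 ratio of -1.46. Its relative MICA was at -0.32, and as the 2 genes are paralogs their reads can be shared. No substrate reached 1, against 8.51% of all genes. The nearest was the proteoglycan SDC4 at 0.99, or 1.08 after removal of the trend, where 5.66% of genes were at 1 or more. The most abundant were CD44, a hyaluronan receptor, with 433.2 and 314.6, and APLP2, a relative of the amyloid precursor protein, with 270.4 and 239.2. The direction of both depended on the scale. CD44 was at 0.46 from FPKM and at -0.17 from count shares, from 7331 and 7024 counts. APLP2 was at 0.18 and -0.03, and the median of all genes from count shares was -0.21. The amyloid precursor gene APP was at 0.04, and NOTCH1 and NOTCH2 were at 0.27 and -0.19.

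The 6 subunits of gamma-secretase, the protease that cuts the stubs left by shedding, all passed, with a median of 0.11. None was past 1 or -1 from FPKM, against 8.51% and 3.27% of all genes. PSEN2 was at -1.16 from count shares, where the median of all genes was -0.21 and 9.7% of genes were at -1 or less. PSENEN had an FPKM of 130.8 and 73.5, a log2 ratio of 0.82, and APH1A had 68.2 and 64.0. Of 11 proteins that bind the tails of ADAM proteins, 9 passed with a median of 0.02. None was past 1 or -1, against 8.51% and 3.27% of all genes. PACSIN3, an endocytic adaptor, had 115.6 and 60.3, a log2 ratio of 0.93, and MAD2L2 had 75.1 and 43.1. SH3PXD2A, the scaffold of invadopodia, was at 0.49, and the kinase gene SRC was at 0.02. Of 8 integrin chains, 5 passed and all 5 were below 0, against 48.9% of all genes tested. Their median was -0.22 and none was past -1, against 3.27% of all genes. After removal of the trend 3 of them were below 0, and ITGAV, at 0.13, and ITGB1, at 0.22, were above it. ITGB1 had 221.1 and 233.2, and ITGB5 had 140.3 and 154.2.

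**Figure D5:**
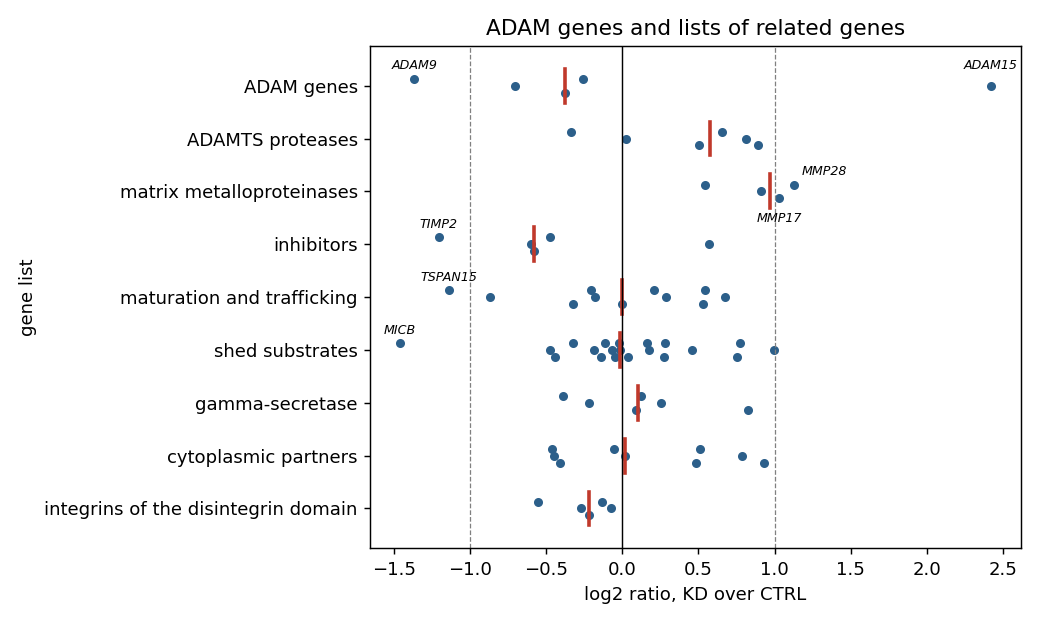
log2 ratio (KD-labelled over CTRL-labelled column) for the expressed ADAM genes and the lists of related genes, with a point for each gene that passed the filter, a red bar at the median of the list and dashed lines at 1 and -1. ADAM15 is the highest gene of all the lists shown, at 2.42, and the genes past a dashed line are named.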

How the data were processed

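The authors mapped the reads with TopHat 1.4.1 to hg19, per the labels, and Cuffdiff 2.2.0 gave the deposited FPKM values. The estimated counts deposited beside them need not be whole, and of those above 0, 85.6% (KD-labelled) and 86.9% (CTRL-labelled) lay within 0.01 of a whole number. The sources used here do not state how 3 libraries became 1 value. The authors' own columns of fold changes, p-values and FDR were not used.

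The members and lists were chosen with earlier results of these data known. For each symbol the row with the highest mean FPKM was kept. Genes entered with a mean FPKM of 1 or more, and their ratios are log2 values of FPKM plus a pseudocount of 1. Exact binomial and Poisson intervals (95%) of the counts cover counting error only, and depth limits genes with few counts. The genes named include the 7 members, the list genes past a log2 ratio of 1 and most of the 2 most abundant of each list. They also include the genes within 100 kb of ADAM15 that passed the filter and the 5 nearest to it by pattern. List genes such as TSPAN14, TIMP3, NOTCH1, SDC4 and SRC were named after their values were seen.

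Base composition, length and sequences came from the canonical transcripts of GENCODE release 44 on GRCh37, the build of the table, whose locus starts were raised by 1 to count from 1. The trend removed was a quadratic in GC content and log2 length. The functions were tested on simulated data. The work used scipy 1.17.1, pandas 2.3.3, numpy 2.4.6 and matplotlib 3.10.9 under Python 3.11.15. Some items are not reported here.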

Additional observations from a re-analysis of the deposited data

How the results depend on the processing

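Over 19 results, 87 values were computed under alternatives. Of these, 72 stayed within their limits and 15 moved, and none turned the direction of an expressed member. The limit was the counting interval for a gene, the interval or range of the median for a list and 1.5 times the main number for a count of genes. With counts divided by the column totals (no pseudocount), ADAM15 was at 2.195, which is 2.40 above the median of all genes (-0.21), and the shed substrates were at -0.23, against -0.02 with FPKM. On this scale 1322 genes were lower by 1 or more and 930 higher, a share of 41.3% higher, against 72.2% (1169 higher and 450 lower) from FPKM. After removal of the trend with GC content and length, ADAM15 was at 1.92, its difference from the median of the other expressed members was 2.12 against 2.96, and 753 genes were higher by 1 or more. The matrix metalloproteinases were then at 0.12 over 3 genes, against 0.97 over 4, as MMP28, the highest of the 4, had no GC content and dropped out. With a pseudocount of 0.1, 791 genes were lower by 1 or more, and with an FPKM over 5 in at least 1 column, where fewer genes were counted, 292 were. With no filter on low values, the median of the matrix metalloproteinases was -0.044, with the sign turned. This median is the value of MMP13, which had 0 counts in the KD-labelled column and 1 count in the CTRL-labelled column. The cause was not tested. The rank of ADAM15 in each column was the same from counts per kilobase of the canonical transcript. The comparison of ADAM15 with ADAM9 from counts was chosen after seeing the data. No paired analysis was possible because each group has only 1 deposited value per gene, and for the same reason no library could be left out.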
